A study of Mus musculus with 4 samples.

Results

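The mucus of the mouse colon holds, besides its gel-forming mucin, a set of smaller proteins that goblet-type cells secrete with it. The genes of 9 such proteins were followed here: Zg16, Fcgbp, Tff3, Agr2, Spink4, Klk1, Sval1, Clps and Retnlb. They were chosen by name, as proteins of the goblet type that are secreted with mucus, and all 9 were found among the 14519 genes of the expression table. The choice was made with earlier results of these libraries known, in which goblet-type genes stood higher in the Reg4+ cells. Their difference between the cell populations is therefore given as a description, without a test.

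Cells were sorted from mouse colonic epithelium by fluorescent reporters. One population was the Reg4-dsRed+ deep crypt secretory (DCS) cells, mucus-making cells that lie between the stem cells at the crypt base, and the other was the Lgr5-GFP+ cells, which carry the stem cell marker Lgr5. RNA of each population was read in 2 libraries (replicates 1 and 2) by CEL-seq, which sequences the 3′ ends of transcripts, and each replicate is described as a separate round of sorting and library preparation. Strain, age, treatment and the number of mice per library are stated by neither the labels nor the design text used here. A reporter sort takes every cell bright in that colour, so a library can hold other cell types. With bulk RNA, fewer cells of a type and less RNA per cell cannot be told apart.

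Colonic mucus is built from the mucin Muc2, which goblet-type cells fold and cross-link through disulfide bonds, store in granules and release to the crypt opening. The inner layer of this mucus keeps bacteria from the cells. Proteins released with the mucin bind the gel, bind or kill bacteria, or act on the epithelium. Agr2, in contrast, belongs to the protein disulfide isomerase family and acts mostly inside the endoplasmic reticulum, where the mucin is folded.

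Values are RPM, the reads of a gene scaled so that each library sums to 1000000. Counting 3′ ends does not scale with transcript length, but how reads were counted is not given. Levels of different genes are therefore compared as shares of reads and not as numbers of transcripts. The libraries rested on 5205723 to 7955340 reads. The label check held: Reg4 stood at 6187 and 5899 RPM in the DCS libraries and 796 and 363 RPM in those of Lgr5+ cells, and Lgr5 at 0.989 and 3.13 against 46.5 and 48.8 RPM. Of 10183 genes with at least 5 RPM in at least 2 libraries, limma called 731 higher and 2744 lower in DCS cells (Benjamini-Hochberg adjusted p under 0.05), or 34.1% in all. When the libraries were rescaled by their median ratio, the median log2 difference of all tested genes moved from −0.47 to 0.02 and the calls to 1591 higher and 1297 lower. The 5 epithelial markers summed to 6634 to 9078 RPM in the 4 libraries, and Paneth cell markers to at most 1.71 RPM. Leukocyte markers were listed at 0 in both DCS libraries and summed to 42.6 and 11.6 RPM in Lgr5+ replicates 1 and 2, and the 1 stromal marker analysed, Col1a1, stood at 2.11 and 1.13 RPM there. Enteroendocrine markers summed to 16.9 and 25.5 RPM in DCS cells and 70.1 and 30.3 RPM in Lgr5+ cells. The lists of other cell types differed between the Lgr5+ libraries: 5 absorptive cell markers summed to 659 RPM in replicate 1 and 127 RPM in replicate 2, 5 tuft cell markers to 769 and 228 RPM, and 5 stem cell markers to 753 and 871 RPM. In the DCS libraries the same 3 lists summed to 84.0 and 35.0 RPM (absorptive), 2.30 and 1.98 RPM (tuft, with 2 of 5 markers listed at 0) and 233 and 392 RPM (stem). Most of the stem sum in DCS cells was Slc12a2, at 218 and 369 RPM there and 352 and 405 RPM in Lgr5+ cells. Slc12a2 was not called, and the other 4 stem markers were called lower in DCS cells.

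Together the 9 genes took 8.67% and 6.93% of all reads in the DCS libraries (7.80% ± 1.23, SD, n = 2) and 0.345% and 0.168% in the Lgr5+ libraries (0.257% ± 0.125, SD, n = 2). Spink4, Zg16, Fcgbp and Tff3 ranked between the third and the eighth most abundant genes of each DCS library. Clps, the lowest of the 9, ranked 419 and 664. All 9 genes were higher in both DCS libraries than in both Lgr5+ libraries, a pattern that 16.1% of tested genes shared, and all 9 passed limma's threshold in that direction, as 7.18% of tested genes did. As the genes were chosen with this contrast in view, these counts describe the choice and are no support for it. The log2 difference (of RPM + 1, DCS minus Lgr5+) had a median of 5.20 over the 9 genes, beside −0.47 over all tested genes, and each of the 9 was at least 10-fold higher by mean RPM, which 0.962% of tested genes were.

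**Figure D1:**
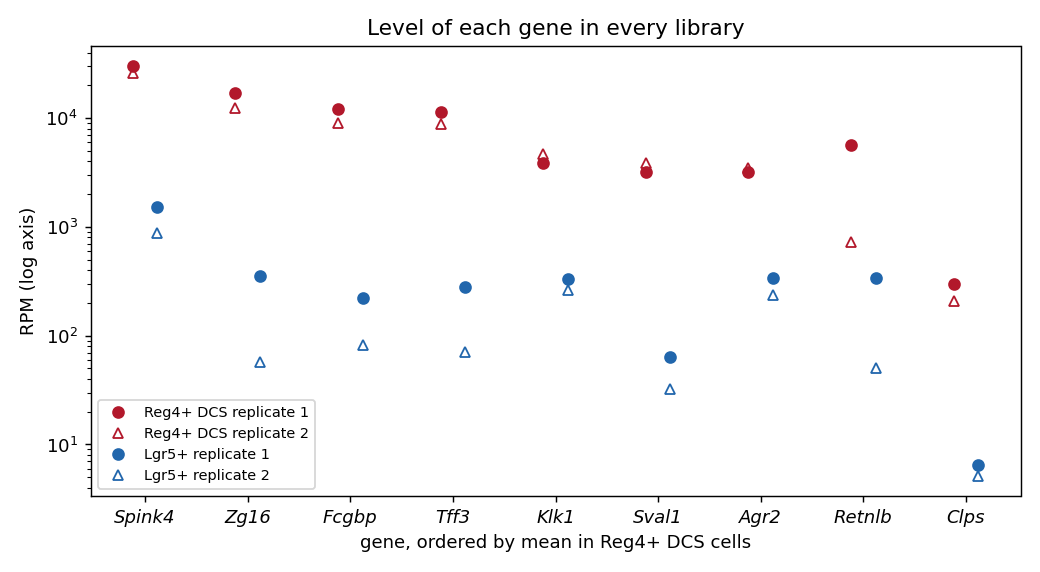
RPM of the 9 genes (log axis) in each of the 4 libraries, with filled circles for replicate 1 and open triangles for replicate 2. Every DCS point of a gene lies above its Lgr5+ points, and Retnlb is the gene whose DCS points are farthest apart (5704 and 729 RPM).

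The proteins that are structural or binding parts of the mucus were Zg16, Fcgbp and Tff3. Zg16 (mm10 chromosome 7, 127050156 to 127087328), a lectin that binds the cell wall of Gram-positive bacteria, stood at 17135 and 12312 RPM in the DCS libraries and 356 and 57.6 RPM in those of Lgr5+ cells. Fcgbp (chromosome 7, 28071236 to 28120862), a large protein of von Willebrand D domains that is bound to the mucin gel, stood at 12029 and 9042 RPM in the DCS libraries and 224 and 82.3 RPM in those of Lgr5+ cells. Tff3 (chromosome 17, 31125306 to 31129646), a trefoil peptide that promotes closure of epithelial wounds, stood at 11418 and 8758 RPM in the DCS libraries and 277 and 70.3 RPM in those of Lgr5+ cells. In DCS cells these 3 genes had nearly the same ratio between replicates, with replicate 1 at 1.30 to 1.39 times replicate 2, but in Lgr5+ cells the ratio differed, at 2.72 for Fcgbp, 3.95 for Tff3 and 6.19 for Zg16. By mean RPM the folds were 71.1 for Zg16, 68.8 for Fcgbp and 58.0 for Tff3, and they moved with the Lgr5+ libraries: without Lgr5+ replicate 1 they were 255.7, 128 and 144, and without Lgr5+ replicate 2 they were 41.3, 47.1 and 36.4.

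Agr2 (chromosome 12, 35992907 to 36004087), the isomerase of the endoplasmic reticulum, stood at 3201 and 3504 RPM in the DCS libraries and 339 and 238 RPM in those of Lgr5+ cells. Of the 9 genes it had the highest level in Lgr5+ cells relative to DCS cells, 8.60% of the DCS mean, and the lowest fold, 11.6 (9.89 to 14.1 without 1 library). Its standard error on the log2 scale, 0.26, was among the smallest of the set. Klk1 (chromosome 7, 44225360 to 44229618), a tissue kallikrein, which is a serine protease that frees kinins from kininogen, had a like profile. It stood at 3828 and 4704 RPM in the DCS libraries and 333 and 264 RPM in those of Lgr5+ cells, a fold of 14.3 (12.8 to 16.2 without 1 library). Both genes were slightly higher in DCS replicate 2 than in replicate 1, unlike Zg16, Fcgbp and Tff3.

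Spink4 (chromosome 4, 40920052 to 40931395), a secreted protein of the Kazal family of serine protease inhibitors, was the most abundant of the 9 in every library. It stood at 29851 and 26202 RPM in the DCS libraries and 1518 and 885 RPM in those of Lgr5+ cells. It made up 34.4% and 37.8% of the summed RPM of the 9 genes in the DCS libraries and 44.0% and 52.5% in the Lgr5+ libraries. Its fold of 23.3 ranged from 18.5 to 31.7 without 1 library. By RNA reads Spink4 stood at 7.80 and 5.57 times the level of Klk1 in DCS replicates 1 and 2. In Lgr5+ replicates 1 and 2 it stood at 4.56 and 3.35 times that level. Protein levels were not measured here, and whether Spink4 inhibits Klk1 was not tested.

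Sval1 (chromosome 6, 41951630 to 41956098), named for its likeness to a seminal vesicle antigen, stood at 3225 and 3828 RPM in the DCS libraries and 63.2 and 32.2 RPM in those of Lgr5+ cells. Its mean in Lgr5+ cells was 1.35% of that in DCS cells, the lowest percentage of the 9, and its fold of 74.0 (55.8 to 109.6 without 1 library) was the fourth largest of all tested genes. In DCS cells Sval1, Agr2 and Klk1 were at nearly the same level, with means of 3527 ± 426, 3352 ± 214 and 4266 ± 619 RPM (SD, n = 2). In Lgr5+ cells Sval1 was at 47.7 ± 21.9 RPM, while Agr2 was at 288 ± 71.4 and Klk1 at 299 ± 49.1 RPM (SD, n = 2), so that genes of like level in one population were 6.05 and 6.26 times apart in the other.

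Clps (chromosome 17, 28558149 to 28560766) encodes colipase, the cofactor that anchors pancreatic lipase to fat droplets. It stood at 296 and 210.4 RPM in the DCS libraries and 6.53 and 5.15 RPM in those of Lgr5+ cells, the last of which came from 34 and 41 reads. It was the least abundant of the 9 in every library, by more than 3-fold in each. Its fold of 43.4 changed little when 1 library was left out (36.0 to 50.7). Pancreatic acinar cells are the classical source of colipase. Of 10 acinar markers, 3 were among the genes analysed: Ctrb1, a chymotrypsinogen, was at 0.0905 and 0.333 RPM in the DCS libraries and listed at 0 in both Lgr5+ libraries, and Prss2, a trypsinogen, was listed at 0 in both DCS libraries and at 0.576 and 0.754 RPM in those of Lgr5+ cells. Cela1, an elastase-like gene, stood at 343 and 678 RPM in the DCS libraries and 608 and 776 RPM in those of Lgr5+ cells and was not called.

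Retnlb (chromosome 16, 48816856 to 48818892) encodes RELM-beta, a small goblet cell protein that kills Gram-negative bacteria and is induced by type 2 cytokines. It differed between replicates more than any other of the 9. It stood at 5704 and 729 RPM in the DCS libraries and 336 and 50.2 RPM in those of Lgr5+ cells. DCS replicate 2 was thus 2.17 times Lgr5+ replicate 1, whereas for the other 8 genes the lowest DCS value was 9.45 to 51.0 times the highest Lgr5+ value. The mean was 3216 ± 3518 RPM in DCS cells and 193 ± 202 RPM in Lgr5+ cells (SD, n = 2), so the SD was as large as the mean in both. The fold of 16.6 was 3.77 without DCS replicate 1, 29.5 without DCS replicate 2, 64.1 without Lgr5+ replicate 1 and 9.56 without Lgr5+ replicate 2.

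Replicate 1 exceeded replicate 2 of Retnlb by 7.83-fold in DCS cells and by 6.71-fold in Lgr5+ cells. Of the 10183 tested genes, 5 (Retnlb included) had a ratio at least as large in DCS cells, and Retnlb alone reached its ratios in both populations. At least a 2-fold excess in replicate 1 of both populations was found for 1 of the 9 genes, Retnlb, and for 0.678% of tested genes. When libraries of the same number were set against each other, the Lgr5+ value of Retnlb was 5.90% of the DCS value in replicate 1 and 6.88% in replicate 2. The labels do not say whether a number marks a shared round of sorting. The tested genes nearest to Retnlb over the 4 libraries (distance between centred log2 profiles, a measure added after its values were seen) were Ang4, an antimicrobial ribonuclease, Itln1, an intelectin that binds microbial sugars, Fhl1, Slpi, a secreted inhibitor of leukocyte proteases, and 9530053A07Rik. Ang4 stood at 6461 and 1895 RPM in the DCS libraries and 317 and 61.8 RPM in those of Lgr5+ cells. Itln1 stood at 1564 and 598 RPM in the DCS libraries and 111 and 16.2 RPM in those of Lgr5+ cells. For both genes replicate 1 was the higher one in each population, by 3.41-fold and 5.13-fold (Ang4) and by 2.61-fold and 6.86-fold (Itln1).

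**Figure D2:**
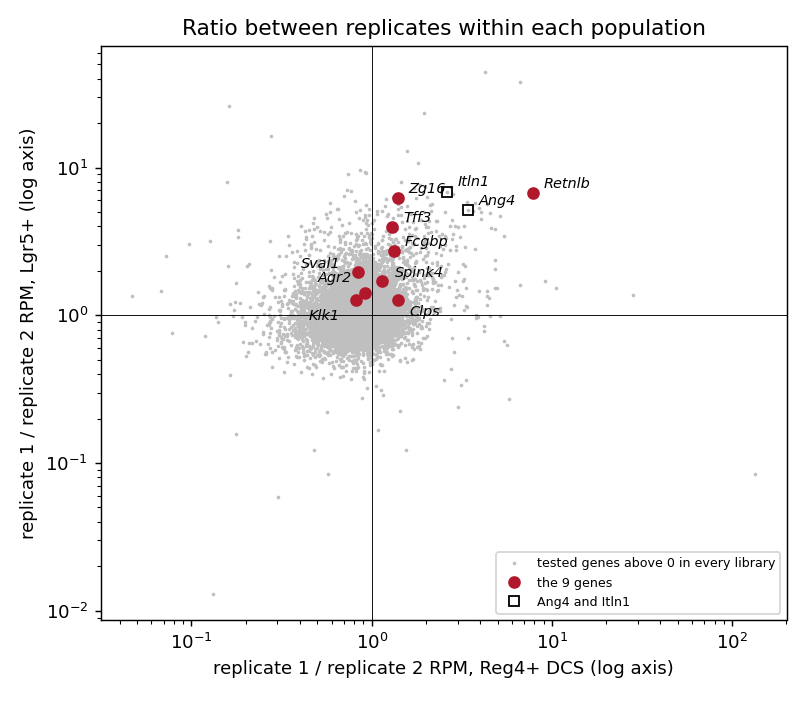
Ratio of replicate 1 to replicate 2 RPM in DCS cells (horizontal, log axis) and in Lgr5+ cells (vertical, log axis), with tested genes above 0 in every library in grey, the 9 genes in red, and Ang4 and Itln1 as squares. Retnlb lies at 7.83 and 6.71, apart from the other 8 genes, which spread along the vertical axis from 1.26 to 6.19.

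Within the Lgr5+ libraries the 9 genes did not keep one ratio. All 9 were higher in replicate 1, by 1.26-fold for Klk1, 1.27-fold for Clps, 1.42-fold for Agr2, 1.72-fold for Spink4, 1.96-fold for Sval1, 2.72-fold for Fcgbp, 3.95-fold for Tff3, 6.19-fold for Zg16 and 6.71-fold for Retnlb, while the median of tested genes was 1.02. In the DCS libraries 6 of the 9 were higher in replicate 1, and without Retnlb the ratios ran from 0.814 for Klk1 to 1.41 for Clps. Each DCS value looked like an average over 2 parts and each Lgr5+ value came from 1, so these spreads are not directly comparable. The ratio of the summed markers between Lgr5+ replicates 1 and 2 was 5.18 for absorptive cells, 3.38 for tuft cells and 0.865 for stem cells. The 4 goblet and DCS cell markers (Reg4, Muc2, Atoh1 and Spdef) also differed, with sums of 1896 and 997 RPM in these libraries. Among them Atoh1 alone was higher in replicate 2, at 15.2 and 17.1 RPM. Enteroendocrine markers summed to 70.1 and 30.3 RPM. The part of these markers in the spread of the 9 genes was not tested. The order of the 9 genes by level was also less alike here: Zg16 was the second most abundant of them in both DCS libraries and in Lgr5+ replicate 1, and the sixth in Lgr5+ replicate 2. As a share of the DCS library of the same number, which need not be its pair, the Lgr5+ values ran from 1.86% (Fcgbp) to 10.6% (Agr2) in replicate 1. In replicate 2 they ran from 0.468% (Zg16) to 6.88% (Retnlb).

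**Figure D3:**
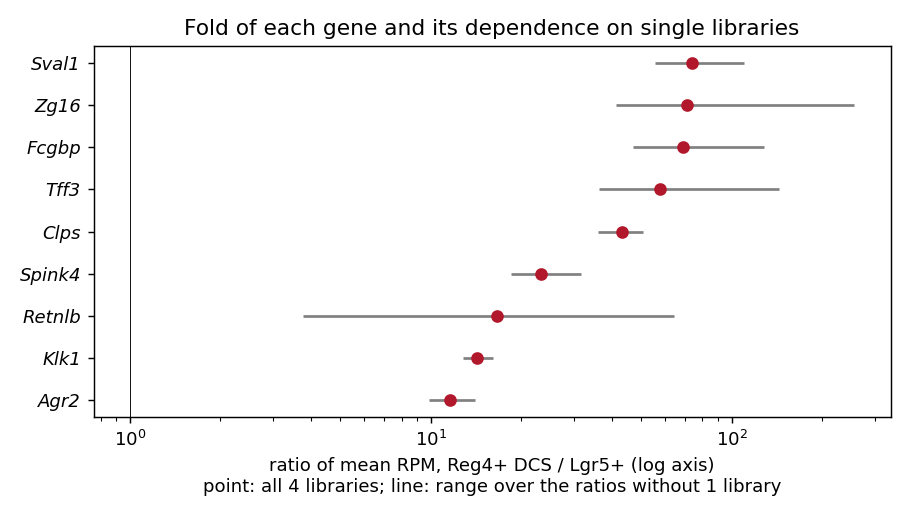
Ratio of mean RPM between DCS and Lgr5+ cells for the 9 genes (log axis); the point is the ratio over 4 libraries and the line spans the ratios obtained with 1 library left out. The lines are shortest for Klk1, Agr2 and Clps and longest for Retnlb (3.77 to 64.1) and Zg16 (41.3 to 255.7).

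By the annotation (GENCODE M21 on GRCm38, the assembly called mm10), all 9 genes are protein-coding and none shares exon bases with another annotated gene. Of the 9, 8 have a coding sequence shorter than the median of 1380 bases over 12852 coding genes of the table, from 243 bases for Tff3 and 258 for Spink4 to 783 for Klk1. The exception was Fcgbp, with 7749 coding bases in 19 exons. The genes lie on 6 chromosomes, with Zg16, Fcgbp and Klk1 on chromosome 7 and Tff3 and Clps on chromosome 17.

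Promoter sequence was at hand only for Fcgbp, Agr2, Klk1 and Sval1 and is shown for these genes (folds of 68.8, 11.6, 14.3 and 74.0). The sequences are the 250 bases before the RefSeq start of each gene on GRCm38.p6, all on the plus strand, 5′ to 3′, with matches to any of 4 motifs in capitals. The regions are chr7:28070986-28071235 for Fcgbp, chr12:35992675-35992924 for Agr2, chr7:44225110-44225359 for Klk1 and chr6:41951378-41951627 for Sval1.
Fcgbp: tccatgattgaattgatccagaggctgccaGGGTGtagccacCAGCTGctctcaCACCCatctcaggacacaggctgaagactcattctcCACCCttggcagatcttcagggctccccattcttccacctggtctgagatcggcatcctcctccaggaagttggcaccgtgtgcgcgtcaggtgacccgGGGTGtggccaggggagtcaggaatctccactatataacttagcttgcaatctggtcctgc
Agr2: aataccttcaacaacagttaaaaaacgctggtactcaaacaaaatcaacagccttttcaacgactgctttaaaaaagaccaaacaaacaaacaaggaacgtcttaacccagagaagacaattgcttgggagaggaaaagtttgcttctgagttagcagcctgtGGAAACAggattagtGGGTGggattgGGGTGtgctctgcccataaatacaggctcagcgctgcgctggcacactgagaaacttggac
Klk1: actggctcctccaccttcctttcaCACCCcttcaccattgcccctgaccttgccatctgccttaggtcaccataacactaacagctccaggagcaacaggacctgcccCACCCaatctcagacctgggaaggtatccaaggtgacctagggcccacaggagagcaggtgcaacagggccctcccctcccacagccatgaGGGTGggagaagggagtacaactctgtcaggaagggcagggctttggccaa
Sval1: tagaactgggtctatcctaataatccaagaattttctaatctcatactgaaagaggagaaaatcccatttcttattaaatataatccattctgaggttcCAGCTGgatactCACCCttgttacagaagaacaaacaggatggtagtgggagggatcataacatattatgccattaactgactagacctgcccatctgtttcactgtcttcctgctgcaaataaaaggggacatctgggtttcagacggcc

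The motifs were searched on both strands: the E-box CAGCTG, a form of the site bound by factors such as Atoh1; the forkhead core TGTTTNC; the CACCC box of Krueppel-like factors; and the TATA box TATAAA. The E-box was found in Fcgbp and Sval1 and not in Agr2 and Klk1, and 13.0% of 32851 promoters of this length hold it. In Fcgbp it begins 208 bases and in Sval1 151 bases before the start. The remaining genes of the set were not searched, and a link between a motif and the fold was not tested. The CACCC box was found in 4 of 4 and in 52.0% of all promoters, and TGTTTNC in Agr2 and in 17.8% of all. TATAAA was found in 0 of 4 and in 12.4% of all. Only these exact strings were searched, so other forms of a site, such as tatataa in the Fcgbp sequence, were not counted. A match is a string of letters and no evidence of binding.

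Few relatives of the 9 proteins were found by the symbols searched, and a relative listed under another symbol would be missed. Of 49 genes of the trefoil, AGR, Kazal, kallikrein, seminal vesicle antigen-like, colipase, resistin and Fcgbp families, 14 were found by symbol. Fcgbpl1, a relative of Fcgbp, was among those not found by the symbol searched. Of the 14 found, 3 passed the filter, and limma called 2 of them higher in DCS cells, as it did 7.18% of all tested genes. It called 0 lower (0 also at an unadjusted p under 0.05, and 0 by edgeR). Spink3, a Kazal inhibitor of trypsin, was the only relative with a level near those of the 9 genes, at 3324 and 1667 RPM in the DCS libraries and 513 and 181 RPM in those of Lgr5+ cells (log2 difference 2.94, SE 0.50, limma adjusted p = 0.00384). Its call was lost without DCS replicate 1 (adjusted p = 0.0504). Klk1b3, a kallikrein close in sequence to Klk1, stood at 11.8 and 6.97 RPM against 0.384 and 0.754 RPM (adjusted p = 0.00188), and Txndc12, an isomerase related to Agr2, was not called (adjusted p = 0.610). The count of 2 fell to 0 without DCS replicate 1 and to 1 without DCS replicate 2, since Klk1b3 then missed the filter.

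Agr3, Retnla and Sval3, relatives of other members, were low. Agr3 stood at 0.815 and 0.999 RPM in the DCS libraries and 2.11 and 2.64 RPM in those of Lgr5+ cells. Retnla, a resistin-like protein, stood at 1.99 and 0.333 RPM in the DCS libraries and was listed at 0 in both Lgr5+ libraries. Sval3 stood at 3.48 and 6.81 RPM in the DCS libraries and 0.192 and 0.251 RPM in those of Lgr5+ cells. How reads were split between near-identical kallikreins is stated by no label or file header used here, so the levels of Klk1b3 and of Klk1 itself are uncertain. Of 5 lipases that work with or beside colipase, Pnliprp2 was the 1 tested. It stood at 53.3 and 11.1 RPM in the DCS libraries and 7.49 and 4.90 RPM in those of Lgr5+ cells. Limma called 0 of this list (1 at an unadjusted p under 0.05; Pnliprp2 adjusted p = 0.0508), and edgeR called it, as did limma without DCS replicate 2, Lgr5+ replicate 1 or Lgr5+ replicate 2 (adjusted p = 0.00963, 0.00320 and 0.0195).

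Other proteins of the mucus layer moved in both directions. Of 13 tested, 6 were higher and 2 lower in DCS cells, with a median log2 difference of 0.62 (over all tested genes 7.18% were called higher and 26.9% lower, with a median of −0.47). Those called higher were Muc2, Clca3, a mucus protease now named Clca1, Ang4, Itln1, Muc1 and Muc13, both membrane mucins. Their log2 differences ran from 0.71 for Muc13 (adjusted p = 0.0477) to 6.13 for Clca3 (adjusted p = 0.000828). The Muc13 call was lost without any 1 of the 4 libraries, and that of Itln1 without DCS replicate 1 (adjusted p = 0.0588). Dmbt1, a scavenger receptor protein of mucus that binds bacteria, was lower, at 109 and 55.5 RPM in the DCS libraries and 1219 and 371 RPM in those of Lgr5+ cells (log2 difference −3.09, SE 0.53, adjusted p = 0.00406). Tgm2, a transglutaminase, was lower too, at 2.14 and 2.65 against 26.7 and 27.9 RPM (log2 difference −3.06, adjusted p = 0.000439), and was not tested without either Lgr5+ library. Tgm3, the transglutaminase that cross-links mucus, was not called (adjusted p = 0.0879). Lypd8, which binds flagellated bacteria (0.62), Pigr, the IgA transporter (0.47), Lgals4, a galectin (0.58), and Muc4, a membrane mucin (0.25), were not called either. Lgals4 was called higher under median-ratio scaling (adjusted p = 0.0317), and edgeR called Lgals4 and Muc4 higher (0.0344 and 0.0414). With the replicate number as a block, limma called Lypd8 and Lgals4 higher (adjusted p = 0.0294 and 0.0321) and Tgm3 lower (0.00944). Without Lgr5+ replicate 1, Lypd8 and Pigr were called higher (adjusted p = 0.00151 and 0.0265), and without Lgr5+ replicate 2, Tgm3 was called lower (0.00407).

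Since Agr2 acts in disulfide folding, the enzymes of that step and the receptors that return proteins to the endoplasmic reticulum were counted. Of 22 tested, 14 were higher and 1 lower in DCS cells, with a median log2 difference of 1.11, beside 7.18% called higher, 26.9% called lower and a median of −0.47 over all tested genes. Qsox1, a sulfhydryl oxidase of the secretory pathway, was the highest of them, at 1674 ± 547 against 128 ± 4.10 RPM (SD, n = 2; log2 difference 3.66, SE 0.27, adjusted p = 0.000174). The isomerases Pdia5 (2.21), Txndc5 (2.11), Pdia6 (1.71), Pdia3 (1.67) and P4hb (1.55), the reductase Dnajc10 (1.87) and the chaperone Hspa5 (1.57) rose on the log2 scale. So did the retrieval receptors Kdelr3 (2.36), Kdelr2 (1.63) and Kdelr1 (0.86), and Creld2 (1.12), Txndc11 (1.09) and Erp44 (0.98). Without DCS replicate 1 the calls of Creld2, Txndc11, Erp44 and Kdelr1 were lost, those of Txndc11 and Kdelr1 also without DCS replicate 2, that of Kdelr1 without Lgr5+ replicate 1 and that of Txndc11 without Lgr5+ replicate 2. Agr2 had a larger log2 difference (3.56) than each of these except Qsox1, a description with no test. Prdx4, a peroxiredoxin of the endoplasmic reticulum, was lower (−1.06, adjusted p = 0.0203), a call lost under median-ratio scaling (adjusted p = 0.186), by edgeR (0.0983) and without DCS replicate 1, DCS replicate 2 or Lgr5+ replicate 2 (0.0582, 0.0851 and 0.102). The oxidases Ero1l (0.26) and Ero1lb (−1.09), Pdia4 (0.01), Sdf2l1 (0.92), Erp29 (−0.58), Tmx1 (0.20) and Tmx3 (0.01) were not called. Under median-ratio scaling Ero1l and Sdf2l1 were called higher (adjusted p = 0.0450 and 0.0285), as they were by edgeR (0.0487 and 0.0243). The log2 difference of Ero1lb was −1.61 without Lgr5+ replicate 2, and that of Sdf2l1 was 1.45 without DCS replicate 2. With the replicate number as a block, limma called Ero1lb lower (adjusted p = 0.0112) and Sdf2l1 higher (0.00869).

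Factors known to control goblet secreted genes were mostly higher in DCS cells, 12 of 16 tested with 2 lower, and a median log2 difference of 1.61. Over all tested genes 7.18% were called higher and 26.9% lower, with a median of −0.47. Atoh1 (4.07), Spdef (3.73), Gfi1 (3.58) and Bhlha15 (3.37), factors of secretory fate and maturation, rose most, followed by Ern2 (2.40), the stress sensor particular to mucus-making epithelia, and Xbp1 (1.95). Klf4 (1.93), Foxa3 (1.24), Creb3l1 (0.78) and Foxa1 (0.65) were also called, while Foxa2 (0.10) and Hnf4a (−0.54) were not. Of the receptor chains for type 2 cytokines, which induce Retnlb, Il13ra1 stood at 129 ± 19.4 against 32.7 ± 11.1 RPM (SD, n = 2; log2 difference 1.98, adjusted p = 0.00208) and Il4ra at 49.4 ± 1.63 against 20.8 ± 10.3 RPM (1.30, adjusted p = 0.0250). Their signal transducer Stat6 was lower in DCS cells, at 21.3 ± 1.43 against 45.7 ± 2.98 RPM (SD, n = 2; −1.07, adjusted p = 0.0150), a call lost under median-ratio scaling (adjusted p = 0.0929), by edgeR (0.0964) and without DCS replicate 1 (0.0700) or Lgr5+ replicate 1 (0.0535). Cdx2, a factor of intestinal identity, was lower by 1.74 on the log2 scale (adjusted p = 0.00490). The count of 12 fell to 6 without DCS replicate 1 and to 7 without DCS replicate 2. In both cases the calls of Foxa1, Klf4, Creb3l1 and Il4ra were lost and Bhlha15 missed the filter, and that of Foxa3 was lost without DCS replicate 1. Foxa1 and Creb3l1 also lost theirs without either Lgr5+ library, and Il4ra without Lgr5+ replicate 2.

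**Figure D4:**
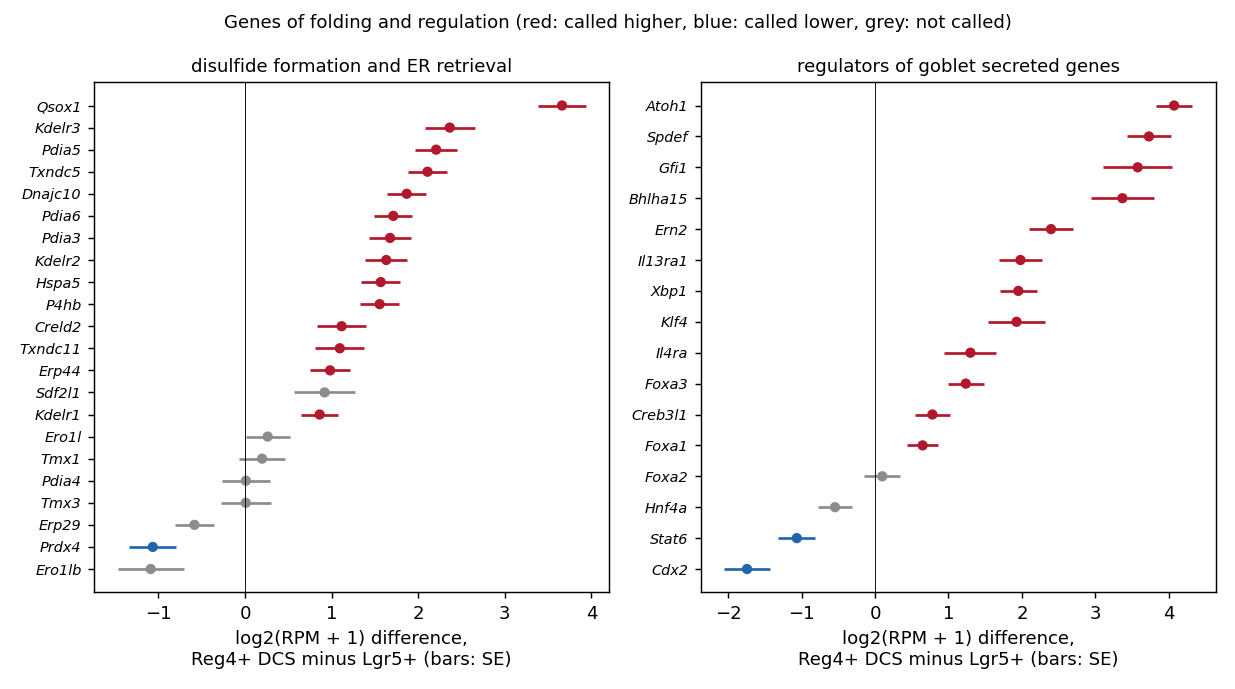
Log2(RPM + 1) difference between DCS and Lgr5+ cells, with SE, for genes of disulfide folding and retrieval (left) and for regulators of goblet genes (right); red is called higher, blue called lower and grey not called. Qsox1 (3.66) and Atoh1 (4.07) lie highest, Ero1lb (−1.09) and Cdx2 (−1.74) lowest.

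By the same distance between centred log2 profiles, the genes outside the 9 nearest to their mean profile over the 4 libraries were Capn9, a calpain found in stomach and gut, Mptx1, a mucosal pentraxin, Gpr20, an orphan receptor, Gm1123 and Tpsg1, a membrane-anchored tryptase. Mptx1 stood at 36387 and 27926 RPM in the DCS libraries and 1472 and 746 RPM in those of Lgr5+ cells, a level above that of Spink4 in both DCS libraries. Gpr20 stood at 94.0 and 81.1 RPM in the DCS libraries and 3.07 and 1.26 RPM in those of Lgr5+ cells, and Tpsg1 at 149.7 and 156 against 8.26 and 2.01 RPM. Capn9 lay 0.30 log2 units from the mean profile, whereas the 9 genes themselves lay between 0.70 (Spink4) and 2.36 (Retnlb) from it.

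The values of each DCS column looked like averages over 2 parts, each with its own scale, and the reads of a gene in each part could be recovered where a single pair of whole numbers gave its value. This held for 4 of the 9 genes in DCS replicate 1 and for Clps in replicate 2. In DCS replicate 1, Agr2 stood at 3021 RPM in the first part and 3381 RPM in the other, and Klk1 at 3785 and 3871 RPM. Sval1 differed more, at 3996 and 2455 RPM from 22070 and 4642 reads. Clps stood at 323 and 269 RPM in replicate 1 and at 251 and 170.2 RPM in replicate 2, so that its parts differed by 1.20-fold and 1.47-fold. For the other 5 genes, Retnlb included, no part values could be given.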

How the data were processed

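The authors deposited 1 table of RPM values for 14519 genes in 4 columns, and each column sums to 1000000. Per the labels, CEL-seq libraries were read as paired ends, and the aligner BWA 0.6.2-r126 and the build mm10 are named in the submitters' processing notes. How reads were counted, the annotation, molecular identifiers and filters: not given in the sources used here. For the Lgr5+ columns, 100% of values gave whole reads (within 0.01 reads). In the DCS columns, sums of 2 step sizes gave whole reads for 99.9% and 98.6% of genes (7414264 and 5448260 reads in all), with the rest estimated from RPM. Genes at 0 in a population were nearly always at 0 in both its libraries (1641 genes in both DCS libraries and 8 in a single one), so a 0 is reported only as listed.

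limma 3.58.1 (R 4.3.3, eBayes with trend) was run on log2(RPM + 1) over genes that reached 5 RPM in 2 or more libraries. Group was the sole term, with Benjamini-Hochberg adjustment over 10183 genes. Adjusted p-values in the report are limma's unless edgeR is named. Log2 differences understate changes of low genes; folds are ratios of mean RPM. Both tools were tested on simulated data. edgeR 4.0.16 (quasi-likelihood) on the recovered reads, an alternative added after seeing the file, called 3118 genes. With 2 libraries per group, p-values rest on the spread within pairs, shrunk toward that of other genes. The 9 genes and all lists were chosen with earlier results of these data known; every tested member of a list was to be named, with the 5 genes nearest in profile. Coordinates come from GENCODE M21 and promoters from RefSeq (GRCm38.p6), which matched 4 of the 9 genes. Alternatives were scaling, pseudocount, filter, trend, the replicate number as a block and leaving out each library.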

Additional observations from a re-analysis of the deposited data

How the results depend on the processing

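With 1 library left out, the lone library of a group is assumed to vary like the others. Genes called then ranged from 1419 to 2637 in all, 349 to 706 higher and 1060 to 2288 lower in DCS cells. The ranges were 0 to 2 (higher) for relatives, 4 to 7 higher and 1 to 2 lower for other mucus proteins, 10 to 13 higher and 0 to 1 lower for disulfide genes, 6 to 10 higher and 1 to 2 lower for regulators, and 0 to 1 higher for lipases. The median log2 difference of the 9 genes, 5.20, ranged from 4.96 to 5.45 without 1 library and was 5.68 without Retnlb. It was 4.59 with a pseudocount of 5 RPM and 5.97 by edgeR, and all 9 differences stayed above 0 in every alternative run. Median-ratio scaling gave 1591 higher and 1297 lower calls and edgeR 1521 and 1597. Both gave 0 lower disulfide genes, 1 lower regulator and 1 higher lipase. With no filter 5 relatives were higher. The replicate numbers do not show that libraries are paired: deviations of same-numbered libraries correlated at 0.21 across genes, with only 2 numbers. With the replicate number as a block, 4444 genes were called (910 and 3534). Among them were 8 higher and 3 lower other mucus proteins, 2 lower disulfide genes and 1 higher lipase. The lowest level among the 9 genes, Clps in Lgr5+ cells, rested on 34 and 41 reads.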
